A study of Rattus norvegicus with 30 samples.

Results

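Rat hepatocytes exposed to 60 uM clofibrate for 24 h were compared with hepatocytes that received the solvent DMSO for the same time. The comparison was chosen by the treatment and time in the labels and holds 10 of the 30 arrays of the series. The 60 uM group was primary hepatocytes of male Sprague Dawley rats given 60 uM clofibrate and harvested at 24 h (n = 5 arrays). The DMSO group was the same kind of cell given the vehicle, labelled 1% DMSO, and harvested at 24 h (n = 5). The clofibrate dosing solutions were also made in DMSO, so every group received the solvent. The cells were bought frozen, thawed onto collagen, overlaid with Matrigel and dosed on the third culture day, and each array measured 1 separately cultured well. No label ties a culture to an animal, and the p-values therefore describe culture-to-culture spread, which may be technical. The 5 arrays of 1000 uM at 24 h, and 5 each of 60 uM and DMSO at 48 h, are used below where dose or time bears on the result.

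Clofibrate is a fibrate, a class of lipid-lowering drug that activates PPAR-alpha. This nuclear receptor senses fatty acids in the liver, pairs with the retinoid X receptor and binds DNA at a direct repeat of a short element. Its known targets carry fatty acids through uptake, activation to acyl-CoA, transport into mitochondria, and oxidation in mitochondria, peroxisomes and the endoplasmic reticulum, and in rats and mice its sustained activation makes peroxisomes multiply.

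The arrays were 30 Affymetrix rat expression arrays whose MAS5 signals were scaled to the same trimmed mean of 1501. Arrays correlated with the others of their group at 0.974 to 0.979 at 60 uM and at 0.972 to 0.976 in DMSO over log2 signals. The ratio of 3' to 5' signal, which rises when RNA is degraded, was 2.28 to 2.52 for actin at 60 uM and 2.26 to 2.64 in DMSO. Precision is limited by having 5 arrays in a group. All 7 hepatocyte markers on the array lay above the background floor at both treatments. The cultures also held signal for other cell types: of 11 Kupffer cell and macrophage markers on the array 8 were bright enough to test, of 8 endothelial markers 5, and of 11 stellate cell and fibroblast markers 6. One DMSO array of the 48 h harvest, replicate 1, had a residual SD of 0.336, against at most 0.297 on any other array, and enters the 48 h values and the pooled spread.

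At 24 h, 60 uM clofibrate raised enzymes at most steps of fatty acid oxidation and lowered a smaller set of genes, among which the matricellular growth factor Ccn2 fell most at high signal. Of 10627 genes tested, 484 (4.55%) were higher and 400 (3.76%) were lower, 884 (8.32%) in all, at an adjusted p under 0.05 (limma fit over all 30 arrays, Benjamini-Hochberg adjustment over 18625 probe sets). Below, a value after ± is the SD over 5 arrays for a signal and the SE of the fit for a log2 change. Most changes were small: the median log2 change was 0.33 among the higher genes and -0.31 among the lower ones. A change of 2-fold or more was reached by 30 of the higher genes and by 6 of the lower ones. The 12 lists around fatty acid and triglyceride metabolism, the lipid lists, also cover ketone bodies, peroxisome assembly, other peroxisomal enzymes and pyruvate dehydrogenase control. These 12 lists held 193 tested genes, of which 95 were higher and 10 were lower. They held 15 of the 30 genes that rose at least 2-fold and 0 of the 6 that fell that far. These lists were drawn up with earlier results of these arrays known, so their counts are descriptions. At 60 uM all 5 arrays lay above all 5 DMSO arrays for 446 genes (4.20%), and for 430 genes (4.05%) they lay below. At an unadjusted limma p under 0.05, 982 genes (9.24%) were higher and 1134 (10.7%) lower, and counts at that threshold given for lists below are read against these shares. Of the called genes, 370 of the 484 higher and 290 of the 400 lower were separated in this way.

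The direction of the small changes depended on how the arrays were scaled. Among probe sets 638 were higher and 584 were lower, so that 52.2% of the calls were rises. With arrays centred on their median the split was 818 to 375, or 68.6% rises, and with quantile normalization it was 694 to 650. Bacterial poly-A control sets averaged a log2 signal of 10.10 ± 0.09 at 60 uM and 10.22 ± 0.08 in DMSO, and scaling to them gave 793 rises and 76 falls. This last scaling moved the median change over all probe sets to 0.10 on the log2 scale, against -0.03 as deposited. In bulk samples fewer cells of a type and less RNA per cell cannot be told apart, and a scaled array does not show a change of total RNA. For many of the falls named below, the call ended under the control scaling.

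**Figure D1:**
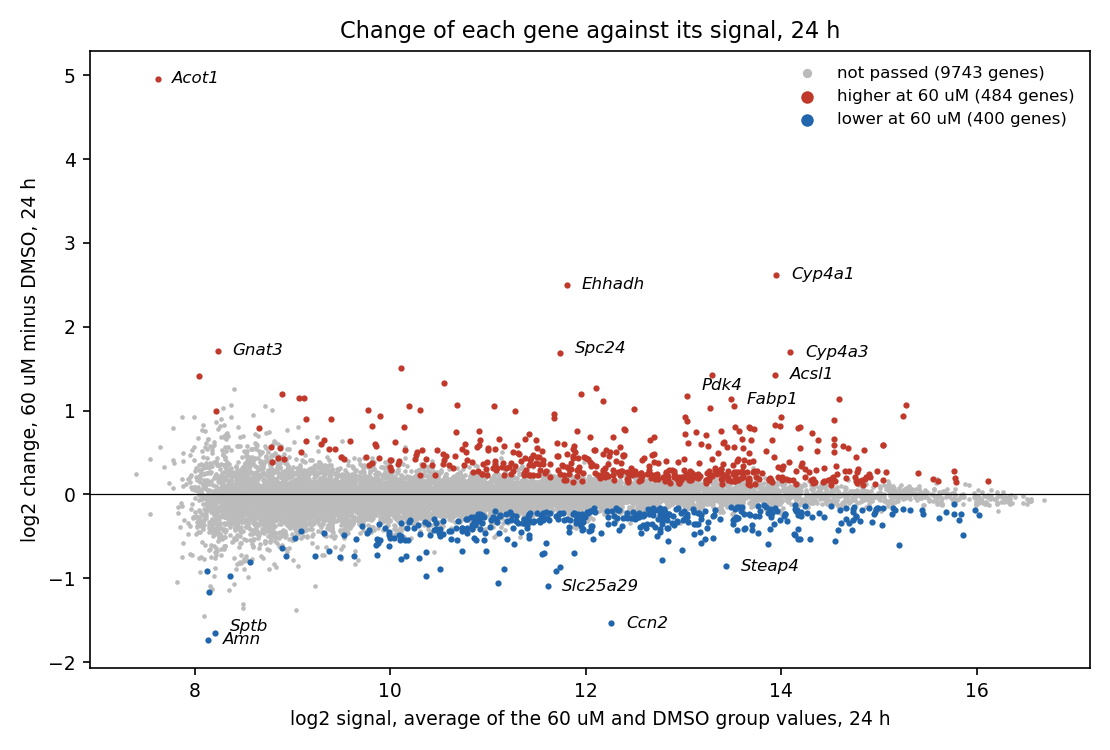
Change of each of 10627 genes at 60 uM against DMSO after 24 h (log2, vertical axis) against its average log2 signal (horizontal axis). Red points are the 484 higher genes, blue points the 400 lower ones and grey points the rest. The 3 genes that rose most were Acot1, Cyp4a1 and Ehhadh, and Ccn2 was the lower gene that stood farthest from the others at high signal.

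Among the genes that rose most, omega-hydroxylases, a peroxisomal enzyme and an acyl-CoA synthetase had high signals on every treated array. Cyp4a1, a cytochrome P450 that hydroxylates the omega end of fatty acids in the endoplasmic reticulum, had signals of 41858, 44958, 35009, 35656 and 37968 on the 60 uM arrays, against 7735, 5566, 6410.2, 5647 and 6579.9 on the DMSO arrays. Its groups were far apart, and its rise was 6.14-fold (2.62 ± 0.09 on the log2 scale, SE of the fit, limma adjusted p = 1e-19). Ehhadh, the bifunctional hydratase and dehydrogenase of peroxisomal beta-oxidation, had signals of 8139.7, 8501, 8181, 8026 and 9598 on the 60 uM arrays, against 1560.0, 1222, 1519, 1623 and 1599.8 on the DMSO arrays. No treated array came near a DMSO array, and the rise was 5.66-fold (2.50 ± 0.08, limma adjusted p = 7.76e-22). Cyp4a3, a second omega-hydroxylase, gave 33395, 30347, 32377, 29105 and 31406 on the 60 uM arrays, against 9528, 8102, 10159, 9818 and 10991 on the DMSO arrays. It rose 3.24-fold (1.69 ± 0.08), also without overlap. Acot1, a cytosolic thioesterase that cuts long-chain acyl-CoA back to fatty acid and CoA, gave 901, 1293, 808, 773 and 721 on the 60 uM arrays, against 92.3, 12.4, 9.8, 20.2 and 80.0 on the DMSO arrays. Its DMSO mean lay under the background floor of 44.9, so the rise is a bound of at least 19.6-fold, and its DMSO values have no order among themselves. That mean also lay under the signal of 255.2 needed for testing, so Acot1 was tested because arrays of other groups were high. Its p-value is not given, since its DMSO mean is background.

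Acsl1, the long-chain acyl-CoA synthetase that activates fatty acids for use, had signals of 24064, 26914, 23927, 25300.5 and 28224 on the 60 uM arrays, against 9350.2, 9404, 9086, 10353 and 9475 on the DMSO arrays. The groups were wide apart, and the rise was 2.69-fold (1.43 ± 0.05), with a further probe set of the gene at 2.06 ± 0.12. Fabp1, which binds fatty acids in the hepatocyte cytosol, had signals of 18543, 17797, 17238, 15817 and 15926 on the 60 uM arrays, against 7942, 7798, 7595, 7744 and 7687 on the DMSO arrays. The DMSO arrays were nearly equal to each other, and Fabp1 rose 2.2-fold (1.14 ± 0.06). Hacl1, which shortens branched and hydroxylated fatty acids in peroxisomes, averaged 16436 ± 843 at 60 uM and 6120.2 ± 283 in DMSO, a rise of 2.68-fold. Of the 19 genes written down as usual PPAR-alpha responders, 15 were tested and 14 rose; the exception was Fgf21, a fasting hormone of the liver, at 3141 ± 194 at 60 uM and 2517 ± 356 in DMSO with overlapping arrays (0.33 ± 0.15, limma adjusted p = 0.26).

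**Figure D2:**
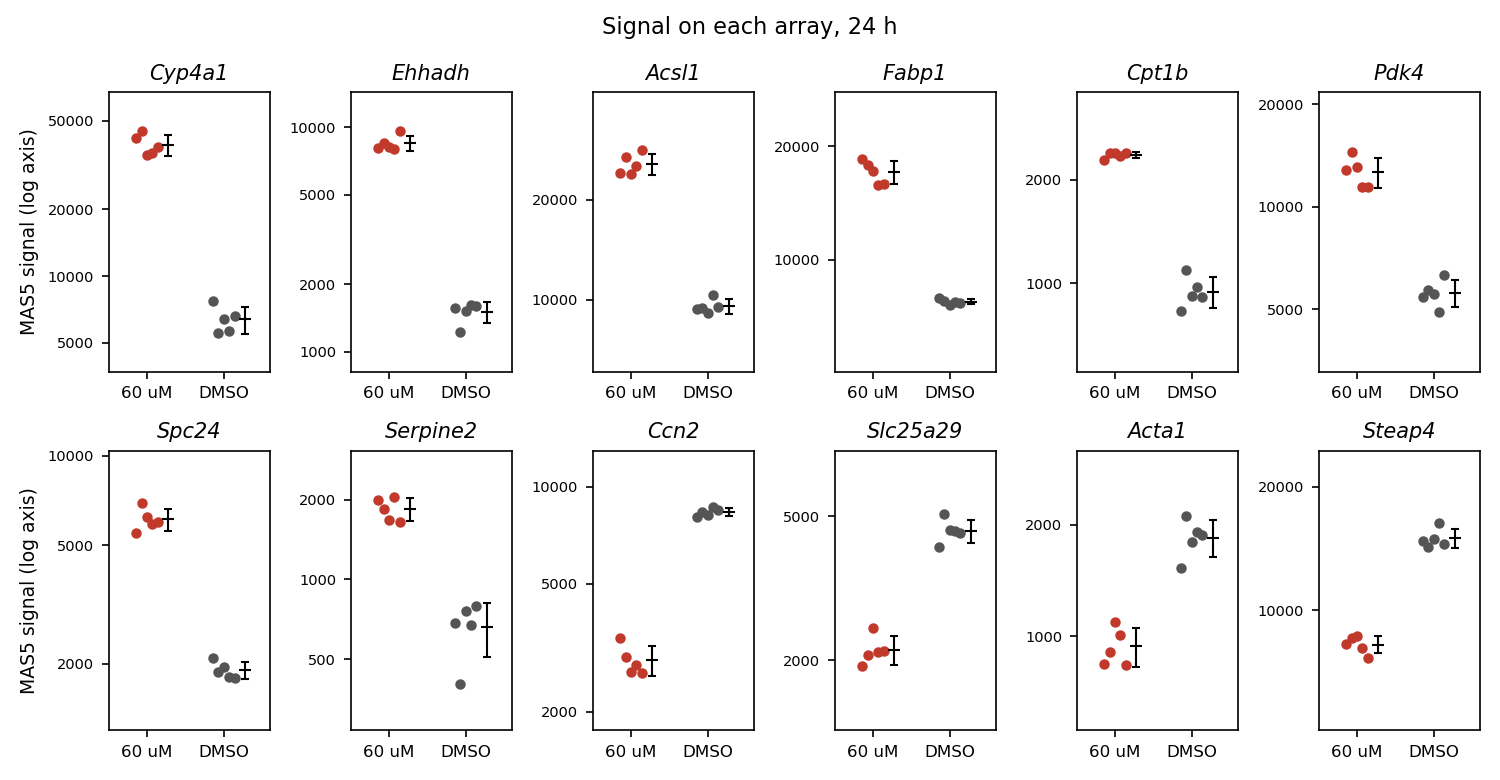
MAS5 signal on each array at 24 h (log axes, a different range in each panel) for 12 genes, with the 5 arrays of 60 uM in red on the left and the 5 of DMSO in grey on the right. Bars beside the points are mean ± SD. In every panel the groups are apart, with the first 8 genes higher at 60 uM and the last 4 lower.

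The stretches before the start sites of several genes that rose hold letters close to the direct repeat that PPAR-alpha is known to bind. RefSeq promoter windows (GRCr8) of 300 bases were searched on both strands for AGGTCA, 1 base of any kind and AGGTCA again, allowing 2 mismatches among the 12 fixed letters. Windows could be matched for 8895 tested genes. The element was found in 31 of 444 windows (6.98%) of genes higher at 60 uM, in 9 of 364 (2.47%) of genes lower and in 293 of 9927 (2.95%) of all tested genes. Over all 33469 RefSeq windows of this length the share was 3.77%. With at most 1 mismatch it was found in 10 windows of the higher genes (2.25%), in 1 of the lower genes (0.275%) and in 47 of all tested genes (0.473%). These shares are a description and were not tested. The 5 sequences that follow are the genes higher by at least 1.5-fold whose window holds the element with 1 mismatch, shown because they place the letters of the receptor's repeat beside genes that rose. Each is the 150 bases before the start site on the gene's own strand, 5′ to 3′, and capitals mark the element, which reads as its reverse complement where it lies on the other strand.
Acot4 (chr6:109399704-109399853, plus strand): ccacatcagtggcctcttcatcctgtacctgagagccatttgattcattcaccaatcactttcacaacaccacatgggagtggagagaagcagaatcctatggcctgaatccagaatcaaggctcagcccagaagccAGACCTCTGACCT
Fabp1 (chr4:104749190-104749339, plus strand): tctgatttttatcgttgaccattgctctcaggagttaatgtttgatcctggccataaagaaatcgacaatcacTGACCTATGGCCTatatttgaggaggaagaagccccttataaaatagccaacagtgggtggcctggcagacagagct
Acot12 (chr2:24721809-24721958, plus strand): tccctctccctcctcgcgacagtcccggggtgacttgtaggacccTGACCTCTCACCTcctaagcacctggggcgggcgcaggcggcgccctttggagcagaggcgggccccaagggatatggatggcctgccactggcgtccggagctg
Acadvl (chr10:55236706-55236855, minus strand): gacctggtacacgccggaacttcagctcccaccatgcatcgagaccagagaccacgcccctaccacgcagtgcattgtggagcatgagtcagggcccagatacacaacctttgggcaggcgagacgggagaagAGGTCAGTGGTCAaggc
Gys2 (chr4:177137237-177137386, minus strand): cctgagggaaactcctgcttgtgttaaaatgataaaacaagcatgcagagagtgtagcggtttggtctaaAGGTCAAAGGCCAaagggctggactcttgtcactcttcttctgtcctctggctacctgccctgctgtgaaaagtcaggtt
The element ended 1 base before the start in Acot4, 5 in Acadvl, 65 in Fabp1, 68 in Gys2 and 93 in Acot12. Of these genes Acot4 and Acot12 encode thioesterases, Acadvl the first dehydrogenase of long-chain beta-oxidation, and Gys2 the liver glycogen synthase. Acadvl averaged 13536 ± 643 at 60 uM and 8793 ± 533 in DMSO and Acot12 7035 ± 317 at 60 uM and 4148 ± 351 in DMSO, and both were named after their values were seen.

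Fatty acid entry and activation rose in part. Of 21 tested genes for uptake, binding and activation 9 rose, 2 fell and 10 did not pass, and the list's median log2 change was 0.27, against -0.02 over all genes. Cd36, a membrane fatty acid translocase, gave 3570.0, 3342, 3286, 3498 and 3489 on the 60 uM arrays, against 1703, 1249, 1672, 1559.6 and 2710.1 on the DMSO arrays. It rose 2-fold, with DMSO arrays that spread more widely than the treated ones. Slc27a2, which takes up and activates very long chains, averaged 41236 ± 1223 at 60 uM and 27507 ± 1226 in DMSO (0.58 ± 0.04). The 2 members that fell were Acsl4, which prefers arachidonic acid (-0.22 ± 0.05), and Acss2, the cytosolic acetyl-CoA synthetase (-0.24 ± 0.05), and both calls ended when arrays were scaled to the control sets (limma adjusted p = 0.651 and 0.532).

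The carnitine shuttle, which moves acyl groups across the mitochondrial membranes, was higher at nearly every step. Of 8 tested genes 7 rose and 0 fell (0 also at an unadjusted limma p under 0.05), with a median of 0.69. Cpt1b, the carnitine palmitoyltransferase of muscle outer membranes, had signals of 2279, 2395, 2395, 2344 and 2402 on the 60 uM arrays, against 830.1, 1095, 918, 975 and 911 on the DMSO arrays. The treated arrays differed by less than the DMSO arrays did, and the rise was 2.51-fold (1.33 ± 0.07, limma adjusted p = 1.74e-15). The liver form Cpt1a averaged 3516 ± 238 at 60 uM and 2142 ± 252 in DMSO (0.72 ± 0.10), although a second probe set, at 0.27 ± 0.10, missed the threshold (limma adjusted p = 0.144). Crat, which makes acetylcarnitine, averaged 4565 ± 347 at 60 uM and 2347 ± 163 in DMSO (0.96 ± 0.06). The translocase Slc25a20 and the inner membrane enzyme Cpt2 rose by 0.79 ± 0.06 and 0.50 ± 0.05.

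Mitochondrial beta-oxidation rose from the first dehydrogenation to the last thiolysis. Of 22 tested genes 17 rose, 0 fell and 5 did not pass (at an unadjusted limma p under 0.05, 1 was lower), with a median of 0.46. All 17 had their 60 uM arrays above their DMSO arrays. Acadm, the medium-chain dehydrogenase, had signals of 12019, 10929.7, 10653, 11352 and 11937 on the 60 uM arrays, against 6381, 5836, 5565, 6322 and 6968 on the DMSO arrays. It rose 1.83-fold (0.88 ± 0.06) with no overlap. Hadha, the alpha subunit of the trifunctional protein that handles long chains, averaged 13907 ± 306 at 60 uM and 8228 ± 459 in DMSO (0.76 ± 0.05). Its other probe set, at 0.34 ± 0.12, did not pass (limma adjusted p = 0.0954). Acaa2, the thiolase that releases acetyl-CoA, averaged 53778 ± 1267 at 60 uM and 28235 ± 1469 in DMSO and rose 1.91-fold. The isomerases Eci1 and Eci2, which move double bonds of unsaturated fatty acids into place, rose by 1.06 ± 0.05 and 0.83 ± 0.04. The 5 members that did not pass had log2 changes between -0.13 and 0.04.

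Peroxisomal enzymes changed in both directions. Of 30 tested genes 16 rose, 2 fell and 12 did not pass, with a median of 0.19. Ech1, a dienoyl-CoA isomerase of peroxisomes and mitochondria, averaged 36742 ± 2210.3 at 60 uM and 16659 ± 936 in DMSO (1.14 ± 0.06). Decr2, which reduces double bonds in peroxisomes, averaged 14081 ± 696 at 60 uM and 6893 ± 414 in DMSO (1.03 ± 0.06). The members that fell were oxidases that do not act on straight-chain acyl-CoA. Hao2, which oxidises long-chain hydroxy acids, had signals of 1784, 2086, 1359, 1798 and 1423 on the 60 uM arrays, against 3254, 3126, 2956, 2932 and 3237 on the DMSO arrays. It was 1.86-fold lower at 60 uM (-0.89 ± 0.14, limma adjusted p = 2.26e-05). Paox, a polyamine oxidase named after its values were seen, was at 2548 ± 436 at 60 uM and 3768 ± 129 in DMSO (-0.58 ± 0.12).

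Peroxins, the proteins that build and divide peroxisomes, were mostly not called. Of 20 tested genes 6 rose, 0 fell and 14 did not pass, with a median of 0.07. At an unadjusted limma p under 0.05, 9 were higher and 1 lower. Pex11a, which elongates the membrane before peroxisomes divide, had signals of 16446, 15654, 15773, 15247 and 14845 on the 60 uM arrays, against 10006, 9058, 9998, 9877 and 10269.9 on the DMSO arrays. It rose 1.58-fold with no overlap, and its other probe set was at 0.62 ± 0.11. Pex3, the anchor for new membrane proteins, averaged 1726 ± 186 at 60 uM and 1306 ± 182 in DMSO with arrays that overlapped (0.41 ± 0.09, limma adjusted p = 0.00196). Pex16, its partner, was at 0.33 ± 0.06, while a dimmer probe set of the gene was at -0.02 ± 0.16.

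Within the Cyp4 family 3 of the 9 tested genes rose and 0 fell (1 at an unadjusted limma p under 0.05). Cyp4a1 and Cyp4a3 rose as given above, and Cyp4v3, a fatty acid hydroxylase of wider tissue range, rose by 0.16 ± 0.04. The other 6 did not pass, and the family's median was -0.04, which turned positive with control scaling at 0.08. Thioesterases rose, with 8 of 10 tested genes higher and 0 lower (9 and 0 at an unadjusted limma p under 0.05) and a median of 0.69. Acot4, which cuts peroxisomal dicarboxylyl-CoA, had signals of 6198, 6591, 5675, 5693 and 5646 on the 60 uM arrays, against 2954, 2311, 2419.6, 2349 and 3019 on the DMSO arrays. The mitochondrial Acot2 averaged 11416 ± 903 at 60 uM and 6018 ± 276 in DMSO (0.92 ± 0.06). Acot3, a peroxisomal long-chain form, averaged 1485 ± 151 at 60 uM and 860.1 ± 172 in DMSO, with 1 DMSO array at 566 and the others between 879 and 1008. The Acot1 to Acot4 genes are close copies of each other, so probes of one may take signal from another, and their values carry that uncertainty.

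Ketone body genes and the pyruvate dehydrogenase step each had 2 members higher. Acat1, the mitochondrial thiolase of ketone synthesis and use, averaged 17143 ± 489 at 60 uM and 9872 ± 721 in DMSO (0.80 ± 0.05), and Bdh1, which makes the ketone body hydroxybutyrate, averaged 2960.2 ± 358 at 60 uM and 2244 ± 137 in DMSO (0.39 ± 0.08). Of 6 ketone genes tested 2 rose and 0 fell (4 higher and 0 lower at an unadjusted limma p under 0.05). Pdk4, a kinase that switches off pyruvate dehydrogenase, had signals of 12839, 14491, 13039.7, 11388 and 11424 on the 60 uM arrays, against 5425, 5706, 5547, 4907 and 6289 on the DMSO arrays. It rose 2.26-fold (1.18 ± 0.06), with its other probe set at 0.59 ± 0.08. Mpc2, a subunit of the mitochondrial pyruvate carrier, averaged 28282 ± 1655 at 60 uM and 19908 ± 648 in DMSO. Of 14 genes of pyruvate dehydrogenase control and uncoupling 2 rose and 0 fell (4 higher and 0 lower at an unadjusted limma p under 0.05).

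Lipid droplet and lipolysis genes rose in 13 of 23 cases and fell in 1, with a median of 0.28. Angptl4, a secreted inhibitor of lipoprotein lipase, had signals of 17359.6, 19019, 17017, 15057 and 16016 on the 60 uM arrays, against 7889, 9319, 8389, 7010.4 and 8169 on the DMSO arrays. It rose 2.07-fold (1.05 ± 0.06, limma adjusted p = 1.12e-14). Both an inhibitor of droplet lipolysis and a lipase were higher: G0s2, which inhibits adipose triglyceride lipase, averaged 15785 ± 1416 at 60 uM and 9351 ± 630.2 in DMSO, and Mgll, the monoglyceride lipase, averaged 5011 ± 490.4 at 60 uM and 2959.7 ± 137 in DMSO. Hilpda, a droplet protein that also restrains lipolysis, averaged 7056 ± 774 at 60 uM and 4101 ± 266 in DMSO (0.78 ± 0.07). Plin2, the main coat protein of hepatocyte droplets, was bright in both groups at 61635 ± 4742 at 60 uM and 50684 ± 2927 in DMSO (0.28 ± 0.05), and its dimmer probe set was at 0.63 ± 0.07.

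Fatty acid and triglyceride synthesis moved both ways. Of 18 tested genes 6 rose, 4 fell and 8 did not pass, with a median of 0.04. Gpd2, the mitochondrial glycerol-3-phosphate dehydrogenase, had signals of 1394, 1958, 1666, 1691 and 1715 on the 60 uM arrays, against 799, 672, 864, 822 and 880.5 on the DMSO arrays. It rose 2.08-fold (1.06 ± 0.10), with its other probe set at 0.54 ± 0.09. The cytosolic Gpd1 averaged 32282 ± 1064 at 60 uM and 17528 ± 777 in DMSO, glycerol kinase Gk 4479.9 ± 232 at 60 uM and 2389 ± 267 in DMSO and the glycerol channel Aqp7 2783 ± 141 at 60 uM and 1763 ± 117 in DMSO. Aqp9, the main glycerol channel of hepatocytes, was lower at 1749 ± 271 at 60 uM and 2196 ± 218 in DMSO with arrays that overlapped (-0.34 ± 0.10, limma adjusted p = 0.0474), and lost its call under 13 of 18 alternatives, control scaling among them. Lpin1, a phosphatidate phosphatase that also acts as a coactivator, was 1.37-fold lower at 11883 ± 832 at 60 uM and 16278 ± 944 in DMSO (-0.46 ± 0.06). Desaturases and elongases had 6 of 12 genes higher and 1 lower, with a median of 0.17. Elovl6, which lengthens saturated chains, averaged 2110.0 ± 217 at 60 uM and 1259 ± 161 in DMSO (0.75 ± 0.13). Its other probe set, at 0.47 ± 0.20, did not pass (limma adjusted p = 0.202). The desaturase Fads1 and the elongation reductase Hsd17b12 rose by 0.46 ± 0.11 and 0.41 ± 0.05.

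**Figure D3:**
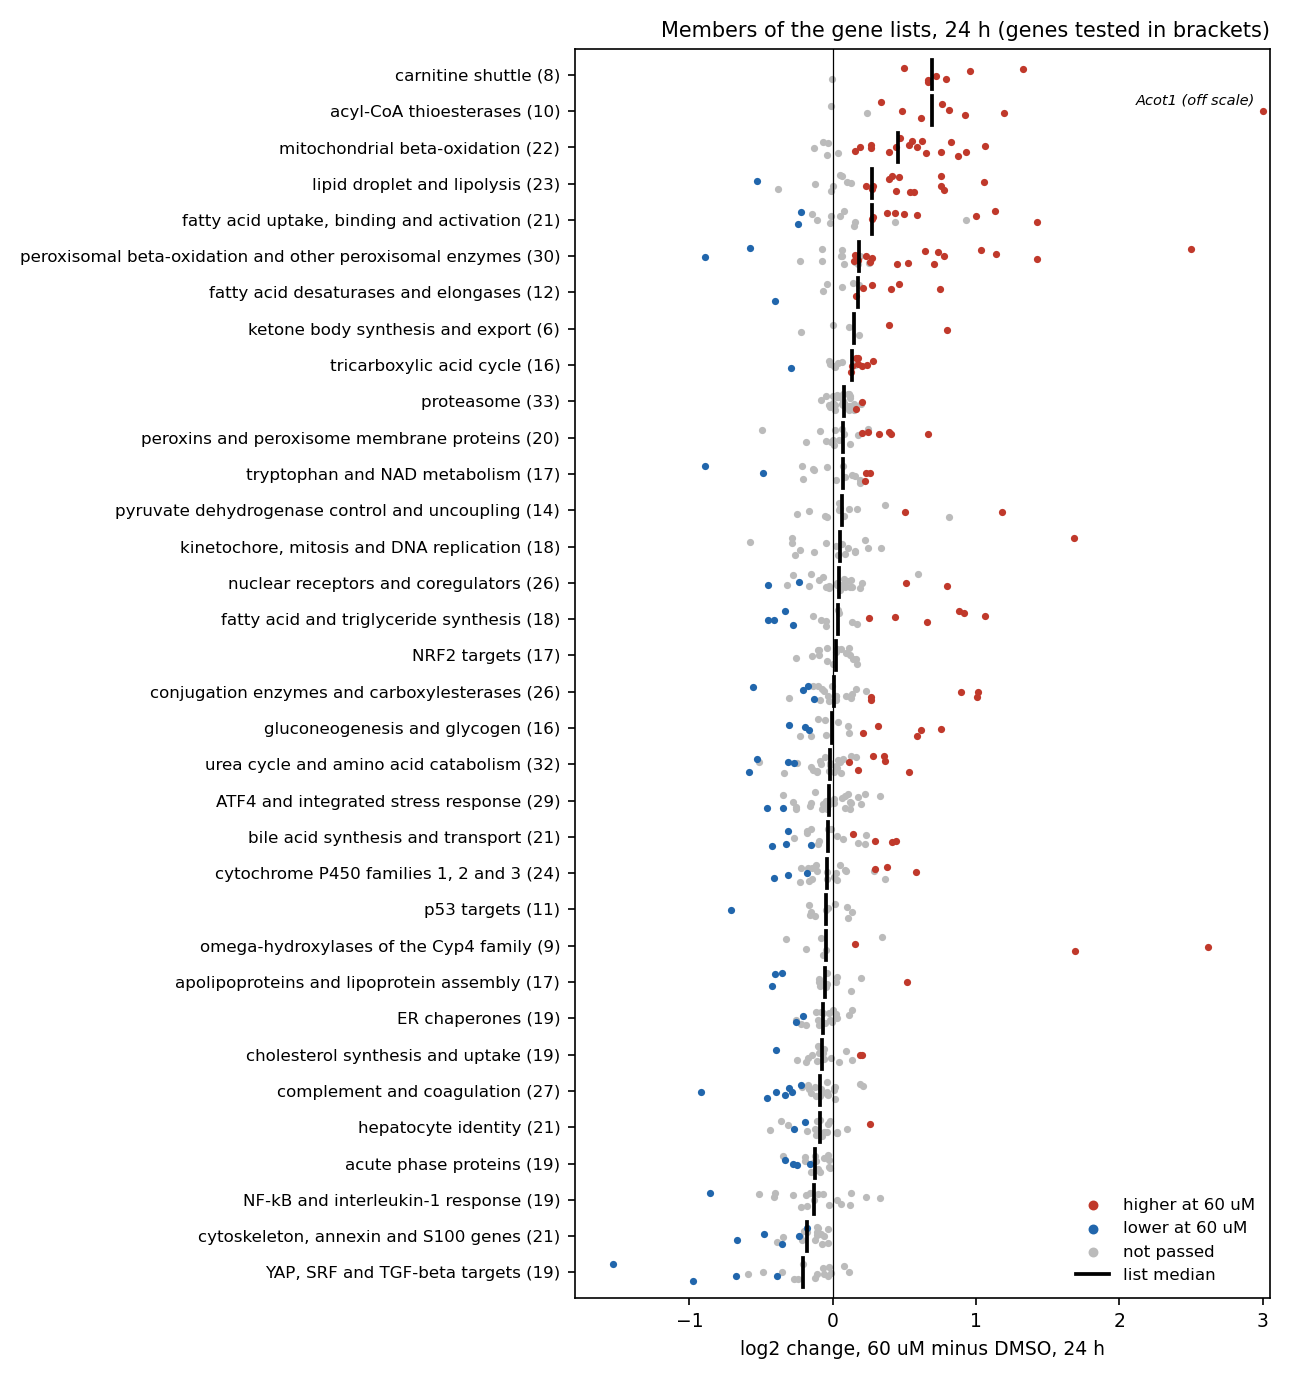
Log2 change at 60 uM against DMSO after 24 h (horizontal axis) of each tested gene in 34 lists (rows, ordered by their median, with the number of genes tested). Red points rose, blue points fell and grey points did not pass, and black bars are list medians. The carnitine shuttle and the thioesterases lie highest at 0.69, and the YAP, SRF and TGF-beta targets lie lowest at -0.21.

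Some of the genes that rose most belong to none of the lipid lists. Spc24, a subunit of the Ndc80 complex that ties chromosomes to the spindle, had signals of 5513, 6934, 6203, 5912 and 5989.5 on the 60 uM arrays, against 2082, 1875, 1949, 1804 and 1794 on the DMSO arrays. It rose 3.21-fold (1.68 ± 0.07, limma adjusted p = 2.67e-18) with no overlap. Of 18 tested genes of the kinetochore, mitosis and DNA replication Spc24 was the 1 that rose and 0 fell (1 at an unadjusted limma p under 0.05), and the median was 0.05. Gnat3, the alpha subunit of the taste G protein gustducin, was dim, at 506, 533, 612, 479 and 466 on the 60 uM arrays, against 235, 259.7, 68.5, 189.9 and 123 on the DMSO arrays. The DMSO mean of Gnat3 lay under the signal of 255.2 needed for testing, so the gene was tested because other arrays were higher. Serpine2, a secreted inhibitor of thrombin and urokinase, had signals of 1994, 1851, 1671, 2046 and 1644 on the 60 uM arrays, against 682, 405, 760.4, 673 and 793 on the DMSO arrays. Its rise was 2.84-fold (1.51 ± 0.11), and 1 DMSO array lay below the other 4. Aig1, which hydrolyses hydroxy fatty acid esters, averaged 6798 ± 261 at 60 uM and 2835 ± 195 in DMSO and rose 2.4-fold.

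Vnn1, a pantetheinase that releases cysteamine and a known PPAR-alpha target, averaged 6788 ± 275 at 60 uM and 3151 ± 439 in DMSO (1.12 ± 0.07). Serpina7, the thyroxine-binding globulin of plasma, had signals of 897, 782, 792, 771 and 872 on the 60 uM arrays, against 432, 386, 363, 374 and 309 on the DMSO arrays. That is a 2.21-fold rise from a low level, with groups far apart. The calcium channel subunit Cacna2d3 averaged 718 ± 95.4 at 60 uM and 316 ± 65.6 in DMSO, and the acid phosphatase Acp3 averaged 2359 ± 179 at 60 uM and 1137 ± 188 in DMSO.

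Ccn2, a secreted matricellular protein that YAP and TGF-beta signalling are known to raise, fell more than every other called gene except Amn and Sptb, which were dim. Its signals were 3392, 2961, 2665, 2793 and 2633 on the 60 uM arrays, against 8058, 8329, 8192, 8642 and 8484 on the DMSO arrays. It was 2.9-fold lower at 60 uM (-1.54 ± 0.10, limma adjusted p = 9.69e-14), and the groups did not approach each other. Of 19 tested targets of YAP, SRF and TGF-beta 4 fell and 0 rose (10 lower and 0 higher at an unadjusted limma p under 0.05). Their median was -0.21 and stayed negative with control scaling at -0.09. Acta1, an actin of muscle that SRF controls, had signals of 841, 909, 1094, 1011 and 838 on the 60 uM arrays, against 1529.5, 2111, 1795, 1906 and 1870.3 on the DMSO arrays. It was 1.96-fold lower (-0.97 ± 0.14). The actin crosslinker Flna averaged 1348 ± 202 at 60 uM and 2142 ± 239.6 in DMSO (-0.67 ± 0.13), and the YAP partner Tead1 was at -0.39 ± 0.07, a call that ended with control scaling (limma adjusted p = 0.0989).

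Cytoskeleton, annexin and S100 genes fell in 5 of 21 cases and rose in 0 (13 lower and 0 higher at an unadjusted limma p under 0.05). Their median was -0.18, and it stayed negative with control scaling at -0.06. Vim, the intermediate filament of mesenchymal and dedifferentiating cells, had signals of 6053, 5483, 6556, 7146 and 6999 on the 60 uM arrays, against 9510.0, 10161, 10718, 10162 and 10371 on the DMSO arrays. It was 1.59-fold lower (-0.67 ± 0.10) with no overlap. S100a6, a calcium-binding protein, averaged 15275 ± 1071 at 60 uM and 21359 ± 1749 in DMSO, and the tropomyosin Tpm4 averaged 10297 ± 277 at 60 uM and 13195 ± 1031 in DMSO, though the call of Tpm4 ended with control scaling (limma adjusted p = 0.129) and its other probe set was at -0.09 ± 0.12. Beside these falls, 0 of 6 tested markers of stellate cells and fibroblasts passed (0 also at an unadjusted limma p under 0.05), and the summed signal of these 6 ranged from 4383 to 5069.6 at 60 uM and from 4480.5 to 5621 in DMSO. Over all 11 on the array, of which 2, Lrat and Lum, lay under the floor in both groups, it was 5113 to 6298 at 60 uM and 5081 to 6412 in DMSO. Of 5 tested endothelial markers 0 passed (0 also unadjusted, by limma), and they summed to 2089 to 2504 at 60 uM and 2490.5 to 2694 in DMSO, ranges that barely touch. Over all 8 on the array the sums overlapped, at 2345 to 3096 at 60 uM and 2859 to 3281 in DMSO. Among Kupffer cell and macrophage markers Lyz2, lysozyme, was lower at -0.30 ± 0.08. That call ended with control scaling (limma adjusted p = 0.475) and without replicate 2 of 60 uM (limma adjusted p = 0.0615). At an unadjusted limma p under 0.05, 1 of the 8 tested members was lower and 1 higher. The 8 summed to 27935 to 29460.0 at 60 uM and 27538 to 29506 in DMSO. Cd14 was the largest part of this sum, at a mean of 17378 at 60 uM and 15930 in DMSO. Lyz2 came next and moved the other way, at 6187 and 7584. The part of these cells in the falls was not tested.

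Slc25a29, a mitochondrial carrier of basic amino acids, had signals of 1926, 2071, 2455, 2115 and 2118 on the 60 uM arrays, against 4117, 5069, 4590.4, 4551 and 4486 on the DMSO arrays. It was 2.14-fold lower (-1.10 ± 0.11, limma adjusted p = 7.53e-09). Slc25a15, the mitochondrial ornithine carrier of the urea cycle, averaged 12198 ± 428 at 60 uM and 18308 ± 472 in DMSO (-0.59 ± 0.04), and each of its 4 other probe sets was lower too, between -0.82 and -0.54. Steap4, a metalloreductase that cytokines induce, had signals of 8252, 8570.5, 8627, 8096 and 7651 on the 60 uM arrays, against 14747, 14243, 14904, 16317 and 14522 on the DMSO arrays. That is 1.81-fold lower (-0.86 ± 0.11), and it was the 1 of 19 NF-kB and interleukin-1 response genes that passed. At an unadjusted limma p under 0.05, 6 of the 19 were lower and 1 higher. B3galnt1, which adds a sugar to make globoside, averaged 5359.7 ± 361 at 60 uM and 9213 ± 511 in DMSO (-0.78 ± 0.08). Rab11fip5, an adaptor of recycling endosomes, averaged 2530.0 ± 264 at 60 uM and 4616 ± 361 in DMSO (-0.87 ± 0.11).

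The largest log2 falls, of Amn and Sptb, were those of dim genes with wide errors. Amn, amnionless, a partner of cubilin in protein uptake, had signals of 283, 167, 109, 117 and 101 on the 60 uM arrays, against 325, 723, 674, 324 and 488 on the DMSO arrays. It was 3.33-fold lower (-1.73 ± 0.41, limma adjusted p = 0.00568), on signals near the filter. Sptb, the beta chain of spectrin, averaged 179 ± 96.4 at 60 uM and 490.5 ± 122 in DMSO (-1.65 ± 0.43, limma adjusted p = 0.0141). Leaving out replicate 3 or 4 of 60 uM ended this call, at a limma adjusted p of 0.0701 and 0.0512. Sowahb averaged 1513 ± 182 at 60 uM and 3182 ± 572 in DMSO (-1.06 ± 0.15). Mical2, which oxidises actin, and Diaph3, a formin that builds actin filaments, were lower by 0.77 ± 0.18 and 0.73 ± 0.15, with the other probe set of Mical2 at -0.17 ± 0.19. Pfkfb3, a regulator of glycolysis, the potassium channel Kcnma1 and the Rab regulator Dennd5a were lower by 0.76 ± 0.17, 0.73 ± 0.16 and 0.72 ± 0.13. Cttnbp2nl, Myrf and Galnt4 passed at adjusted p = 0.0302, 0.0487 and 0.0462 (limma), and each lost its call under 8 or more alternatives, control scaling among them (limma adjusted p = 0.0742, 0.127 and 0.18).

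Plasma proteins fell in part, and their list medians changed sign with control scaling. Of 27 tested complement and coagulation genes 7 fell and 0 rose (12 lower and 2 higher at an unadjusted limma p under 0.05). Their median was -0.09 and turned to 0.03 with control scaling. Klkb1, plasma prekallikrein, had signals of 2369, 2009, 2250.0, 2502 and 2904 on the 60 uM arrays, against 5341, 4236, 3976, 4361 and 4762 on the DMSO arrays. It was 1.89-fold lower (-0.92 ± 0.14) with no overlap. Coagulation factor F5 averaged 3876 ± 283 at 60 uM and 5344 ± 457 in DMSO (-0.46 ± 0.07), while heparin cofactor Serpind1 was at -0.40 ± 0.11 and lost its call without replicate 5 of 60 uM or replicate 2 or 4 of DMSO and with control scaling (limma adjusted p = 0.0582, 0.0602, 0.0676 and 0.295). Of 19 acute phase genes 4 fell and 0 rose (13 lower and 0 higher at an unadjusted limma p under 0.05). Among the falls was the lipopolysaccharide-binding protein Lbp (-0.33 ± 0.06, ended with control scaling at a limma adjusted p of 0.231). The acute phase median of -0.12 turned to 0.00 with control scaling. Beside these lists, 2 of 7 hepatocyte markers were lower and 0 were higher (4 lower and 0 higher at an unadjusted limma p under 0.05). The larger fall was that of the male-specific Cyp2c11 (-0.41 ± 0.09, limma adjusted p = 0.186 with control scaling), and the markers' summed signal was 417805 to 503593 at 60 uM and 476912 to 533129 in DMSO. Whether the plasma protein falls share their source with these markers was not tested.

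Lipoprotein genes were mostly not called. Of 17 tested 1 rose and 3 fell, with a median of -0.06 that turned to 0.07 with control scaling. Mttp, which loads lipid onto apolipoprotein B, had signals of 17205, 16999, 18621, 17517 and 17767 on the 60 uM arrays, against 13016, 12409.7, 10906, 12638 and 12774 on the DMSO arrays. It rose 1.43-fold (0.52 ± 0.05) with no overlap. Apoa5, an activator of triglyceride clearance, averaged 8401 ± 691 at 60 uM and 11073 ± 578 in DMSO, and the cholesterol exporter Abca1 averaged 3688 ± 583 at 60 uM and 4889 ± 150.5 in DMSO. Both calls ended with control scaling (limma adjusted p = 0.0662 and 0.181). The other probe sets of Abca1, between -0.40 and -0.25, did not pass.

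Intermediary metabolism held changes of both signs. In the tricarboxylic acid cycle 8 of 16 tested genes rose and 1 fell, all by little, with a median of 0.13. Citrate synthase Cs averaged 5856 ± 527 at 60 uM and 4819 ± 453 in DMSO and the ligase subunit Sucla2 averaged 11933 ± 535 at 60 uM and 10143 ± 769 in DMSO, against a fall of the NADP-dependent Idh2 (-0.29 ± 0.05) that ended with control scaling (limma adjusted p = 0.264). Acmsd, which steers tryptophan carbon away from NAD synthesis, had signals of 1071, 1041, 1059.7, 1127 and 1045 on the 60 uM arrays, against 1993, 2066, 1951, 1790.0 and 2127 on the DMSO arrays. It was 1.86-fold lower (-0.89 ± 0.12, limma adjusted p = 1.18e-06). Tdo2, the first enzyme of tryptophan breakdown, averaged 50370.2 ± 4359.5 at 60 uM and 70222 ± 1289.8 in DMSO (-0.48 ± 0.07). These were the 2 of 17 tryptophan and NAD genes that fell, and 3 rose.

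Glucose and amino acid genes followed the same mixed picture. Of 16 genes of gluconeogenesis and glycogen 5 rose and 3 fell. Pck1, the cytosolic carboxykinase that commits carbon to glucose, averaged 2499 ± 376 at 60 uM and 1484 ± 238 in DMSO (0.75 ± 0.11). Fructose bisphosphatase Fbp1 averaged 29269 ± 1039.5 at 60 uM and 19485 ± 1015 in DMSO and Gys2 10453 ± 850.5 at 60 uM and 6817 ± 366 in DMSO. Among 32 urea cycle and amino acid genes 6 rose and 4 fell. The histidine enzyme Uroc1 averaged 5205 ± 458 at 60 uM and 3607 ± 488 in DMSO, and tyrosine aminotransferase Tat averaged 15277 ± 981 at 60 uM and 22136 ± 2240.1 in DMSO (-0.53 ± 0.08).

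Drug and bile acid genes were changed in a minority. Of 24 P450 genes of families 1, 2 and 3 there were 3 higher and 3 lower. Cyp2j4, an epoxygenase of polyunsaturated fatty acids, averaged 11870.4 ± 879 at 60 uM and 7942 ± 641 in DMSO (0.58 ± 0.06), and Cyp2a1, a steroid hydroxylase, was at 0.38 ± 0.10, a call that ended without replicate 4 of DMSO (limma adjusted p = 0.0621). Among 26 conjugation enzymes and carboxylesterases 5 rose and 4 fell. The carboxylesterase Ces1d had signals of 8070.1, 7326, 7168, 8445 and 10014 on the 60 uM arrays, against 4435, 4239, 3684, 3842 and 3972 on the DMSO arrays. It rose 2.02-fold (1.02 ± 0.09). The sulfotransferases Sult1c3 and Sult2a6 rose by 1.00 ± 0.14 and 0.89 ± 0.19, and the glucuronosyltransferase Ugt2b1 averaged 19850.5 ± 2556 at 60 uM and 29042 ± 2271 in DMSO (-0.56 ± 0.08). Both families hold near-identical copies that a probe set may not tell apart. Of 21 bile acid genes 4 rose and 4 fell: the sterol hydroxylase Cyp8b1 was at 0.44 ± 0.06, the conjugating enzyme Baat at 0.41 ± 0.09, the side-chain oxidase Cyp27a1 at -0.33 ± 0.04 (adjusted p = 0.16 by limma with control scaling) and the canalicular exporter Abcc2 at -0.42 ± 0.06.

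Few regulators and stress genes were called. Of 26 nuclear receptors and coregulators 2 rose and 2 fell, the rises being Creb3l3, a liver transcription factor that acts beside PPAR-alpha in fasting, at 15547 ± 574 at 60 uM and 8938 ± 438 in DMSO, and the bile acid receptor Nr1h4 (FXR) at 4522 ± 158 at 60 uM and 3186 ± 349 in DMSO. No NRF2 target passed (0 of 17, with 2 higher and 3 lower at an unadjusted limma p under 0.05). Of 29 genes of ATF4 and the integrated stress response 2 fell, the cationic amino acid transporter Slc7a1 (-0.46 ± 0.11, ended with control scaling at a limma adjusted p of 0.133) and Atf3 (-0.34 ± 0.09, ended under 5 alternatives, among them control scaling at a limma adjusted p of 0.352), and 0 rose. At an unadjusted limma p under 0.05, 8 of the 29 were lower and 3 higher. The other probe set of Slc7a1 was at -0.13 ± 0.10 and did not pass. Of 19 ER chaperone genes 2 fell, led by Hsp90b1 (-0.26 ± 0.04, limma adjusted p = 0.415 with control scaling), and 0 rose. At an unadjusted limma p under 0.05, 9 of the 19 were lower and 0 higher. Sesn1, a stress-induced inhibitor of mTORC1 signalling, was the 1 of 11 p53 targets that passed, at 2338 ± 182 at 60 uM and 3832 ± 278 in DMSO (-0.71 ± 0.10). Cholesterol genes had 2 of 19 higher and 1 lower, the squalene epoxidase Sqle (-0.40 ± 0.09), whose call ended with control scaling (limma adjusted p = 0.233). In the proteasome 2 of 33 rose, Psma1 by 0.20 ± 0.04 foremost, and 0 fell. At an unadjusted limma p under 0.05, 15 of the 33 were higher and 0 lower.

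The 60 uM response was set beside that of 1000 uM at 24 h to show how far each change went on with dose. Against DMSO, 1420 genes (13.4%) were higher and 2182 (20.5%) were lower at 1000 uM. These calls share their DMSO arrays with those at 60 uM. Between the doses themselves 930 genes (8.75%) were higher and 1362 (12.8%) lower at 1000 uM than at 60 uM. Among the rises, those with the largest further step were Acot1, at 42.9 ± 39.9 in DMSO, 899 ± 229.6 at 60 uM and 41117 ± 1649.8 at 1000 uM, and Ehhadh, at 1505 ± 163, 8489 ± 644 and 47138 ± 2053 in the same order of dose. Pdk4 and Hilpda stepped up by a further 2.10 ± 0.06 and 1.76 ± 0.07 on the log2 scale, as did Slc34a2, a phosphate transporter whose level at 60 uM was 568 ± 87.6, by 1.78 ± 0.13. The 60 uM call of Slc34a2 ended when the groups compared were fitted alone (limma adjusted p = 0.083).

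Other rises had a small dose difference or one of the opposite sign. Bdh1 was at 2244 ± 137 in DMSO, 2960.2 ± 358 at 60 uM and 2949.7 ± 234 at 1000 uM, a dose difference of 0.00 ± 0.08 (limma adjusted p = 0.998). Isoc1 was at 7547 ± 390.5, 8732 ± 442 and 8724 ± 334 in the same order, and its other probe set did not pass at 60 uM. Serpina7 differed by 0.25 ± 0.12 between the doses (limma adjusted p = 0.191). Sult2a6 was the reverse case, with 418 ± 124 in DMSO, 758 ± 87.5 at 60 uM and 441 ± 106 at 1000 uM, lower at the higher dose by 0.80 ± 0.19 (limma adjusted p = 0.00226).

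Among the falls the dose step also varied from gene to gene. Ccn2 was at 8341 ± 231 in DMSO, 2889 ± 309.5 at 60 uM and 541 ± 95.8 at 1000 uM. Steap4, Klkb1 and Lurap1l differed between 1000 uM and 60 uM by -1.97 ± 0.11, -1.70 ± 0.14 and -1.45 ± 0.07. Cd47, the surface signal that restrains phagocytes, and the transcription factor Klf9 differed between the doses by -0.01 ± 0.08 and 0.00 ± 0.06, and both of their calls at 60 uM ended with control scaling (limma adjusted p = 0.274 and 0.528). The other probe set of Cd47 was at -0.12 ± 0.09 at 60 uM and did not pass. Pfkfb3 was at 1629 ± 207, 965 ± 172 and 952 ± 131 from DMSO to the higher dose. Amn was the opposite case, at 507 ± 188 in DMSO, 156 ± 75.6 at 60 uM and 469.6 ± 165 at 1000 uM.

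**Figure D4:**
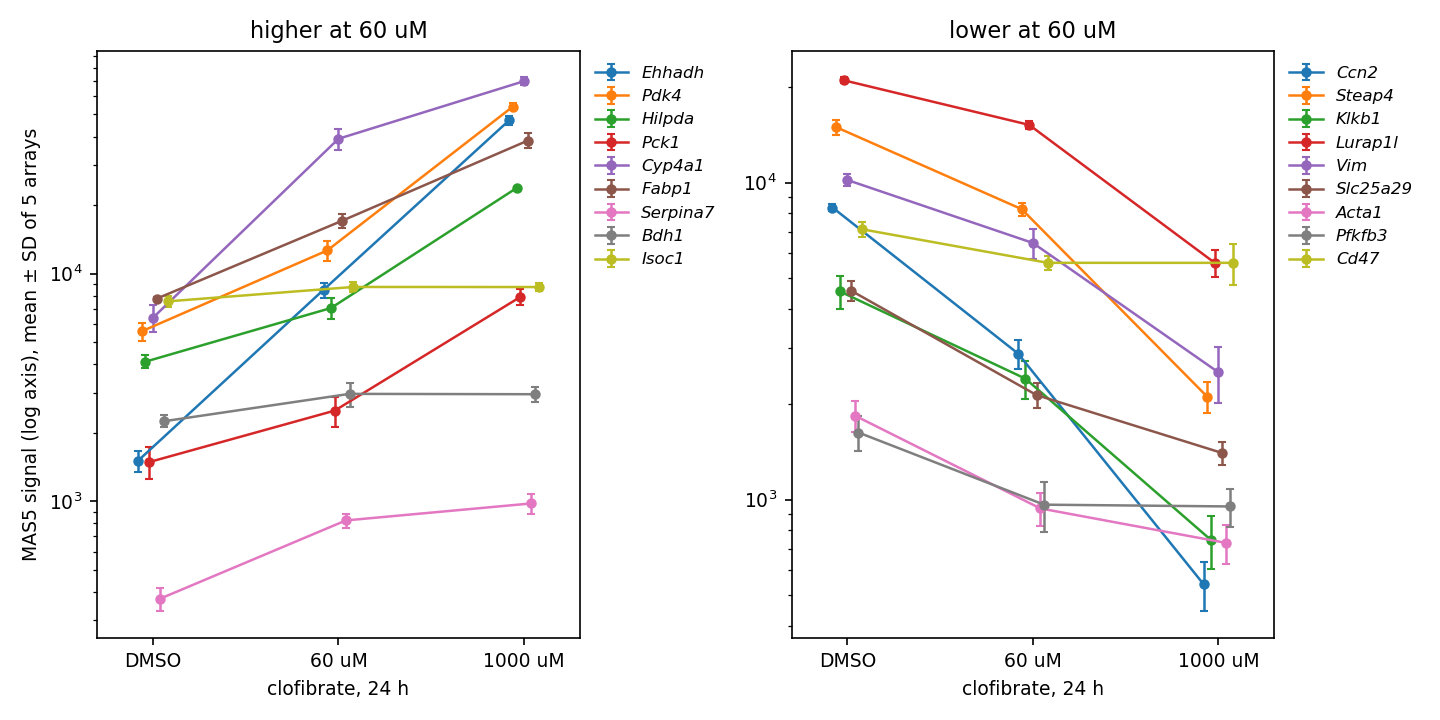
Mean signal ± SD of 5 arrays (log axis) in DMSO, 60 uM and 1000 uM clofibrate at 24 h for 9 genes that rose at 60 uM (left) and 9 that fell (right). Ehhadh and Pdk4 climb again at 1000 uM while Bdh1 and Isoc1 differ little between the doses, and Ccn2 drops again while Pfkfb3 and Cd47 differ little.

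Separate cultures harvested at 48 h, which share no array with those at 24 h, were set beside these calls. At 48 h 60 uM clofibrate raised 606 genes (5.70%) and lowered 615 (5.79%) against DMSO. Of the 484 genes higher at 24 h 356 were also higher at 48 h, which is 73.6% of the 24 h list and 58.8% of the 48 h list. Of the 400 lower genes 250 were also lower, or 62.5% and 40.7% of the lists. With control scaling 284 of 593 higher genes (47.9%) and 42 of 51 lower genes (82.4%) were called at both times. Without DMSO replicate 1 of 48 h, the array that stood apart, 549 genes were higher and 507 lower at 48 h, and 350 and 219 were called at both times. Among the 135 genes that rose by at least 0.5 on the log2 scale 119 rose again, and among the 65 that fell as far 39 fell again. Cyp4a1 was at 2.25 ± 0.09 at 48 h, Ehhadh at 2.71 ± 0.08, Spc24 at 2.07 ± 0.07 and Ccn2 at -1.60 ± 0.10. Of the 24 h falls named beside Amn, Sptb was at -0.25 ± 0.43, Mical2 at -0.13 ± 0.18 and Sowahb at -0.38 ± 0.15 at 48 h, and these 3 did not pass (limma adjusted p = 0.832, 0.776 and 0.124). Diaph3, Cttnbp2nl, Myrf and Galnt4 did not pass at 48 h either. Pfkfb3, Kcnma1 and Dennd5a were lower again, at -0.77, -0.71 and -0.66.

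**Figure D5:**
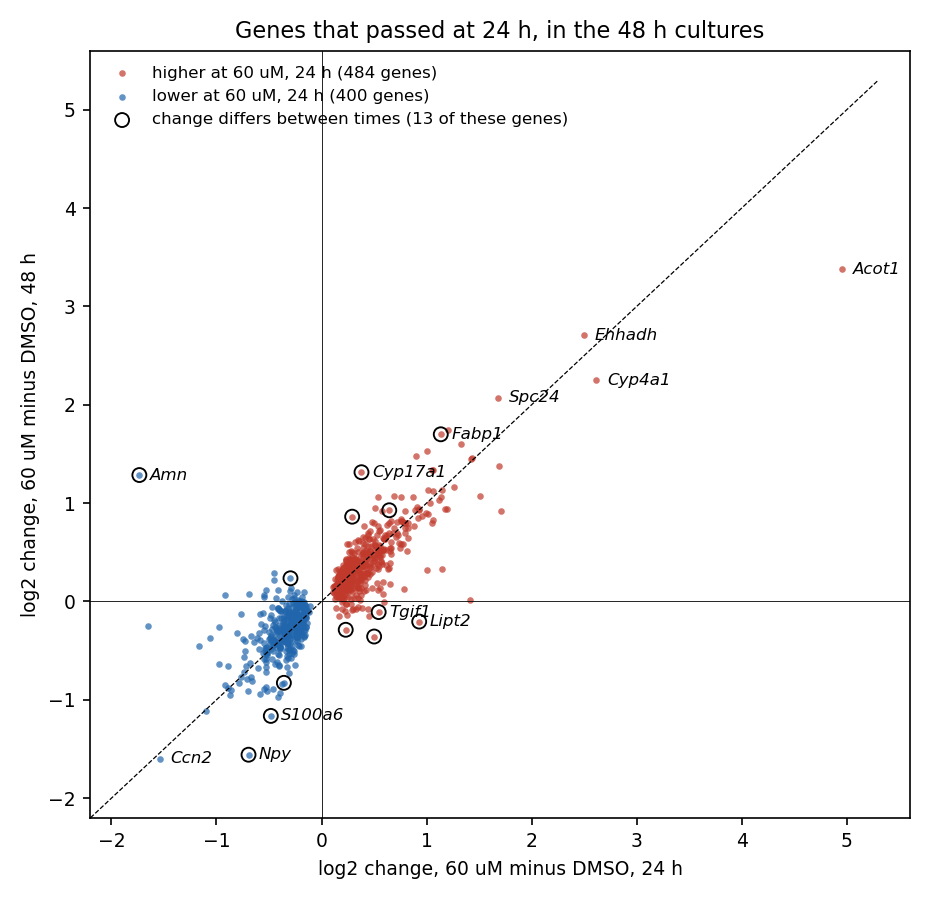
Log2 change at 60 uM against DMSO at 48 h (vertical axis) against that at 24 h (horizontal axis) for the 884 genes that passed at 24 h, with the dashed line marking equal change. Rings mark the 13 of these genes whose change differed between the times. Most points lie near the line, Fabp1 and Npy changed more at 48 h, and Amn changed sign.

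The change itself differed between the times for 16 genes (0.151%) by the interaction term of the fit. These are 16 probe sets, against 9 without replicate 3 of 60 uM at 24 h and 8 with control scaling. Fabp1 stood further above DMSO at the later time: its signals at 48 h were 25322, 23908, 23249, 22750.0 and 24615 at 60 uM, against 6990.4, 6361, 7412, 8353 and 7908 in DMSO, and its change was larger than at 24 h by 0.56 ± 0.08 (limma adjusted p = 0.000234, and 0.194 with control scaling). Npy, neuropeptide Y, was lower by 0.69 ± 0.08 at 24 h and by 1.56 ± 0.08 at 48 h, and S100a6 by 0.48 ± 0.08 and 1.16 ± 0.08. Tgif1, a repressor of TGF-beta signalling, passed at 24 h alone, at 4530.3, 4657, 4695, 4538 and 4189.5 on the 60 uM arrays, against 3045, 2806, 3172, 3326 and 3167 on the DMSO arrays. At 48 h it gave 4189, 4779, 4408, 4477 and 4769.5 at 60 uM, against 5085, 4197, 5017, 5057 and 5053 in DMSO, and these groups overlapped. Afm, the vitamin E carrier afamin, was at 0.09 ± 0.07 at 24 h, where it did not pass, and at 0.81 ± 0.07 at 48 h. It averaged 8878 at 60 uM and 8362 in DMSO at 24 h, and 6560 and 3775 at 48 h. The signal of Afm was thus lower at 48 h in both groups, and more so in DMSO. Cyp17a1, which makes androgen precursors, was at 0.38 ± 0.11 at 24 h and 1.31 ± 0.11 at 48 h, its 24 h call ending under 8 alternatives. With control scaling the time differences of Afm and Cyp17a1 also ended (limma adjusted p = 0.138 each). Of the 16 differences 13 passed without the 48 h DMSO array that stood apart; those of Retsat, Pla2g15 and Amn did not (limma adjusted p = 0.0696, 0.126 and 0.0513).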

How the data were processed

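The deposited MAS5 signals (linear intensity per probe set, scaled by the authors to one trimmed mean) were taken as given, and MAS5 is named per the submitters' processing notes, its version not given in the sources used here. Signals were converted here to log2 from the deposited intensity. No per-sample column was left unused. Of 31042 probe sets that are not controls, 18625 with a mean log2 signal above the 40th percentile (7.996, a signal of 255.2) were tested. A group-means model over all 30 arrays was fitted in limma 3.58.1 (R 4.3.3) with an intensity trend, and p-values were adjusted by Benjamini-Hochberg at a threshold of 0.05. A gene was its brightest probe set with a single symbol, which gave 10627 genes. Of the probe sets 20826 had 1 symbol, 436 several and 9780 none. The background floor was the highest mean of absent-gene control sets in each group, at 46.6 for 60 uM and 44.9 for DMSO at 24 h, and a fold against a group under it is a bound. Sums of markers are of linear signals.

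Named genes were the largest changes whose arrays did not overlap, up to 4 members of each of 40 lists, a set of usual PPAR-alpha genes, the largest differences between the times, and the smallest and largest dose differences. Genes named after their values were seen were Acadvl, Acot12, Acsl4, Acss2, Aqp9, Fundc2, Paox, Pglyrp1, Retsat, Smap2 and Tgif1. The members and lists were chosen with earlier results of these data known. Over 207 genes, those named here and others that met the naming rule, 46 had further tested probe sets. These gave 62 pairs with the brightest one, of which 28 had only 1 probe set pass and 0 had opposite calls. Promoter sequences are RefSeq's (GRCr8). The fit was tested on simulated data with known changes. Alternatives were median centring, quantile normalization, scaling to poly-A control sets, no filter, a filter at the 60th percentile, a constant of 64 added before log2, a fit of the compared groups alone, no intensity trend, each array left out in turn, and a replicate block on serial sets of arrays. Replicate numbers follow the serial numbers in the titles.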

Additional observations from a re-analysis of the deposited data

Results flagged for a closer look

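The response at 60 uM differed between 48 h and 24 h for 16 genes by the interaction term (limma, adjusted over all probe sets). The log2 change was larger at 48 h, taken as 48 h minus 24 h, by 0.56 for Fabp1, 0.28 for Retsat, which saturates retinol, 0.72 for Afm, 0.53 for Smap2, 0.93 for Cyp17a1, 0.57 for Fer1l5 and 3.02 for Amn. The difference was negative at -0.68 for S100a6, -0.75 for Anp32a, -0.65 for Tgif1, -0.86 for Pla2g15, -1.13 for Lipt2, -0.86 for Npy, -1.28 for Il1r2, -0.47 for Pglyrp1 and -0.52 for Fundc2. Of these, 13 genes had passed at 24 h, 8 as higher and 5 as lower, while Afm, Anp32a and Il1r2 had not. Fer1l5 averaged 5490 at 60 uM and 4486 in DMSO at 24 h, and 5051 and 2788.5 at 48 h, so its DMSO level was the one that fell most. Fundc2, Smap2 and Amn were called in opposite directions at the 2 times. The 24 h call of Fundc2 ended under 9 of 18 alternatives and that of Smap2 with control scaling (limma adjusted p = 0.428). The other probe sets of Smap2 were at 0.17 ± 0.18 and -0.01 ± 0.18 at 24 h, and its time difference passed under 14 of 28 alternatives. The 24 h fall of Pglyrp1 also ended with control scaling (limma adjusted p = 0.0917). The brightest probe set of Lipt2, which makes lipoyl groups, rose by 0.93 ± 0.14 at 24 h while its other probe set was at -0.34 ± 0.22. The differences of S100a6, Tgif1, Lipt2, Npy and Il1r2 kept their call under all 28 alternatives run for them.

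In 17 of 278 groups of 5 arrays 1 array lay far from the other 4, past a critical gap of 0.71 of the group's range, and chance gives about 1 in 20 such groups. In DMSO the lowest array stood apart for Acot3 (566.3, others from 879.2), Apoa5 (10051.4, others from 11243.0), Cd47 (6434.0, others from 7162.3), Ehhadh (1221.9, others from 1518.7) and Flna (1739.9, others from 2176.9). The same held for Mttp (10906.4, others from 12409.7), Pglyrp1 (9275.0, others from 10209.7), Serpine2 (404.7, others from 673.1) and Slc25a15 (17499.3, others from 18370.9). The highest DMSO array stood apart for Aig1 (3174.4, others up to 2802.3), Baat (6255.4, others up to 5215.1) and Pla2g15 (1306.0, others up to 1021.0). At 60 uM the lowest array stood apart for Baat (5980.1, others from 7201.7), Creb3l3 (14553.9, others from 15658.8) and Myrf (483.9, others from 929.8). The highest did for Gys2 (11927.7, others up to 10313.1) and Smap2 (1721.0, others up to 1571.4).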

How the results depend on the processing

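Scaling between arrays moved the counts of falls. At 24 h the lower probe sets numbered 375 with median centring and 76 with scaling to poly-A control sets, against 584, and the lower genes 245 and 51, against 400. With control scaling 524 probe sets were higher and 216 lower at 48 h, against 860 and 826; 2091 differed between the doses, against 3332; and 42 genes were lower at both times, against 250. The differences between the times numbered 25 with quantile normalization, 8 with control scaling and 10 without the intensity trend, against 16. Leaving out 1 array at a time gave 551 to 613 higher and 479 to 539 lower probe sets at 24 h, 415 to 459 and 323 to 364 genes, and 749 to 848 and 687 to 778 probe sets at 48 h. It gave 2965 to 3124 between the doses, 321 to 356 and 217 to 245 genes at both times, and 9 to 20 time differences, with 9 without replicate 3 of 60 uM at 24 h. Of 135 named genes that passed, 106 kept their call under every alternative run for them, 17 or 18 each (76 higher and 30 lower), and 0 changed sign. Control scaling alone ended the call of 17, and 12 lost it under other alternatives. Of these 12, Aqp9, Atf3, Cttnbp2nl, Galnt4, Lyz2, Myrf and Serpind1 lost it with control scaling as well. The cause was not tested. The serial numbers in the titles form 5 sets with 1 array of each group, used here as replicate numbers, and no label says that a set shares a batch. Deviations of the 60 uM and DMSO arrays of a set correlated at -0.036 to 0.086 at 24 h, and 1 of the 5 sets correlated best with its own number, so the arrays were not treated as paired. A replicate block on these sets, added after seeing the data, gave 679 higher and 612 lower probe sets at 24 h and 25 time differences. Genes with signals near the floor have wide errors, and the number of arrays limits small changes.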
